A study of Arabidopsis thaliana with 28 samples.

Results

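The loci described here were chosen by their Arabidopsis identifier and by a measured value. The identifier has the chromosome digit, then G03 to G09, then 3 digits of which the last is not 0, a number range to which most of the recently annotated long non-coding RNAs were assigned. The loci were selected on a summed raw count of 200 or more over all 18 libraries. Of 3211 loci in that range, 193 passed this minimum, out of 30901 loci in the table, and 1583 of the range had no count in any library. The range is mostly non-coding in the annotation (2645 long non-coding against 565 protein-coding loci), but the loci with counts are not: 125 of the 193 are protein-coding and 68 are long non-coding. They are therefore called late-numbered loci below. The samples were rosettes of 14-day-old plants of the wild-type accession Col-0 and of the mutant mos11, whose allele the labels do not give, each split by differential centrifugation into a nuclear and a cytoplasmic fraction. There were 4 libraries for each fraction of Col-0 and 5 for each fraction of mos11, all with ribosomal RNA depleted and with spiked-in control RNAs that were not analysed here. Nothing in the labels says that the replicates came from separate plants or batches, so every p-value reflects only how far these libraries differ, which may be technical.

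As background, a gene's RNA is processed in the nucleus before it leaves, and messenger RNA leaves with the help of the TREX complex and the RNA helicase UAP56, to which the MOS11 protein binds. Many long non-coding RNAs, antisense transcripts and unprocessed precursors stay in the nucleus or are destroyed there. Other non-coding RNAs work in the cytoplasm, and the small nuclear and small nucleolar RNAs, which guide splicing and the modification of ribosomal RNA, are cut out of or made beside longer transcripts. The late-numbered loci include hosts and copies of such small RNAs, antisense transcripts, target mimics of a microRNA, and protein genes that earlier annotations had missed or merged.

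The libraries held 2547560 to 3719008 counts in Col-0 nuclei, 556016 to 1160001 in Col-0 cytoplasm, 1966574 to 18213517 in mos11 nuclei and 907270 to 1280371 in mos11 cytoplasm. A single library, replicate 2 of mos11 nuclei, gave 36.7% of all counts, and the nuclear libraries together gave 80.6%. The summed count that chose the loci therefore leans towards RNA that is high in nuclei, and towards that library. Without it, 148 of the 193 loci still reach 200. All cytoplasmic libraries and that nuclear library are labelled with both flow cells, and the other nuclear libraries with 1, so fraction and flow cell cannot be told apart. Levels are given as counts scaled to equal library size with TMM factors (CPM). The MOS11 transcript itself ranged from 4.61 to 11.1 in mos11 cytoplasm against 86.4 to 126 CPM in Col-0 cytoplasm. In nuclei it ranged from 158 to 183 against 193 to 227 CPM, with no overlap in either fraction (two-sided exact permutation p = 0.0159 for each, the smallest that 5 against 4 libraries can give). By edgeR, the cytoplasmic difference was called (log2 fold change -3.73, adjusted p = 5.8e-13). The nuclear one was not (-0.28, adjusted p = 0.0546). The 4 leaf mesophyll markers summed to 3650.0 to 4939 CPM in the Col-0 and 4557 to 5248 CPM in the mos11 nuclear fraction. In the cytoplasm they summed to 49319 to 61489 and 47155 to 54424 CPM. In mos11 nuclei 2 of them were called higher and 1 lower, and 1 was called lower in mos11 cytoplasm. Of 3 guard cell markers, 2 were called higher and 1 lower in mos11 nuclei, with sums of 164 to 187 against 101 to 168 CPM, and 1 was called higher in mos11 cytoplasm. Of 3 epidermis markers, 1 was called lower in each fraction of mos11, with sums of 314 to 371 against 351 to 426 CPM in nuclei. No phloem or root marker was called between genotypes (edgeR; DESeq2 called 1 phloem marker in nuclei, and 1 phloem marker in each fraction and 1 root marker in cytoplasm had an unadjusted p under 0.05), and the 3 flower markers were too low to test. The part of these markers in the results below was not tested.

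The long non-coding loci had a median transcript length of 978 bases, from 211 to 4221, and 39 of 68 had a single exon. Their longest open reading frames had a median of 59 codons. The protein-coding loci had a median length of 1460 bases, a median of 4 exons and a median longest frame of 247 codons. The median GC content was close in both classes ( 41.6% and 41.0%). A gene on the other strand overlapped 55 of the 68 long non-coding and 35 of the 125 protein-coding loci. No source used here says whether counting took account of strand, so how reads of such a pair were assigned is not known. The counts of a pair could still differ. All 832 bases of AT3G04615 lie opposite AT3G24020, yet their summed counts were 401 and 150, with 335 and 51 in mos11 nuclei. Similar numbers do not mean the same neighbourhood: the protein-coding loci started between 0.71 and 5.55 Mb of their chromosomes, as their numbers would place them, whereas the long non-coding loci were spread from 0.175 to 29.9 Mb. Near-identical copies elsewhere in the genome (at least 95% identity over at least 80% of the transcript) make the counts of 10 loci uncertain. AT2G05215, AT2G07629, AT2G07687, AT2G07698, AT2G07715 and AT2G07727 match the mitochondrial genome. AT3G06355, which holds a ribosomal RNA sequence, matches chromosome 2. AT3G06325 matches other sequence on chromosome 3, and AT3G06435 and AT3G08947 match other loci. Smaller parts of further loci are copied elsewhere at that identity, which can affect their counts too. Among these are AT4G04565 (54.5% of the transcript), AT5G07745 (43.6%), AT5G07325 (27.2%) and AT4G05631 (20.7%). The effect of such partial copies was not tested. At the count minimum itself stood AT3G06035, PLA2-ALPHA and AT4G06536 with 200, 200 and 202 counts. Just under it stood AT5G03485 with 192 and AT3G07568 and AT1G06683 with 191 each.

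Together the 193 loci took 1.19% to 1.22% of the counts of the Col-0 nuclear libraries and 0.789% to 0.855% of the mos11 ones. In the cytoplasm they took 4.03% to 5.4% in Col-0 and 3.86% to 4.54% in mos11. Most of this is a single long non-coding locus, AT1G05163 (chr1:5297847-5298571, minus strand, all coordinates in TAIR10.1), which gave 56.4% of their summed count. It contains the non-coding RNA locus AT1G15405, which the annotation does not name further, and overlaps AT1G15410, an aspartate-glutamate racemase family gene, on the other strand. Another locus, AT4G04565 (chr4:1472018-1473136, plus strand), was the next highest in the cytoplasm. The sequences of the pair are related: over 205 aligned columns 81.5% were identical. The related stretches are shown because they tie together loci that carry most of the cytoplasmic counts.
AT1G05163, chr1:5297864-5298066, minus strand: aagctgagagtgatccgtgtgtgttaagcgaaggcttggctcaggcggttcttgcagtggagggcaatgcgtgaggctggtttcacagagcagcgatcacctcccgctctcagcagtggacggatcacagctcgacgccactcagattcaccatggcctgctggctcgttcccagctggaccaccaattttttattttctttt
AT4G04565, chr4:1472840-1473042, plus strand: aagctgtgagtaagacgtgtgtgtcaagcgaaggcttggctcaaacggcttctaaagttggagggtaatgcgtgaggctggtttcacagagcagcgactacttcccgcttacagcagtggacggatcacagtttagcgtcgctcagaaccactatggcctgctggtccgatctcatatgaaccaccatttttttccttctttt
The letters CCCACATCG, the core of the upstream sequence element of plant small nuclear RNA genes, stand before the stretch that matches AT1G15405 in both loci (in capitals below). They start 76 bases before the first matched base in AT1G05163, which holds the whole AT1G15405 sequence. In AT4G04565 they start 178 bases before it, and the match there leaves out the first 100 bases of AT1G15405.
AT1G05163, chr1:5298167-5298266, minus strand: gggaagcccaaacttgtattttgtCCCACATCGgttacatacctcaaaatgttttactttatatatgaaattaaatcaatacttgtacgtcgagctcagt
AT4G04565, chr4:1472640-1472739, plus strand: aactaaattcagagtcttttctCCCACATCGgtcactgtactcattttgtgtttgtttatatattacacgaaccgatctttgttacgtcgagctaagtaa
Searched on both strands, the same letters were found in 23 of 30899 windows of 100 bases before the annotated starts of the table's loci (0.0744%), and in 35.4% of 82 such windows before annotated small nuclear RNA genes. A match is a description of letters, not a site.

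AT1G05163 stood at 1984, 2080.2, 1968 and 1966 CPM in Col-0 nuclei and at 83109.8, 62733, 56836 and 72685 CPM in Col-0 cytoplasm. In mos11 it stood at 1047, 993, 776, 975 and 1026 CPM in nuclei and at 55978, 58384, 48683, 47367 and 47852 CPM in cytoplasm. Every cytoplasmic library was thus above every nuclear one, and every mos11 nucleus below every Col-0 nucleus, while the cytoplasmic ranges of the genotypes overlapped. The log2 fold change of mos11 against Col-0 in nuclei was -1.05 ± 0.10 (SE), adjusted p = 5.9e-08. This and every adjusted p below come from edgeR's quasi-likelihood test with Benjamini-Hochberg adjustment over all 16207 genes tested. In cytoplasm it was -0.41 ± 0.10 (SE), adjusted p = 0.0074, a call lost without replicate 1 of Col-0 cytoplasm or replicate 4 of mos11 cytoplasm (adjusted p from 0.0525 to 0.0569). AT4G04565 measured 181, 234, 192 and 167 CPM in Col-0 nuclei and 110.4, 117, 91.0, 87.9 and 109 CPM in mos11 nuclei, again without overlap. Its cytoplasmic levels were 3323, 3494, 2813 and 3220.0 CPM in Col-0 and 4117, 4203, 3652, 3267 and 3345 CPM in mos11, which overlap. Its nuclear log2 fold change was -0.91 ± 0.12 (SE), adjusted p = 2.9e-06, and the cytoplasmic one, 0.21 ± 0.11 (SE), was not called (adjusted p = 0.24). For both loci the nucleus to cytoplasm ratio was lower in mos11 than in Col-0. The interaction log2 fold change was -0.64 ± 0.15 (adjusted p = 0.025) for AT1G05163 and -1.12 ± 0.16 (adjusted p = 0.00039) for AT4G04565. Per kilobase of transcript, the mean cytoplasmic level in Col-0 was 94953 CPM for AT1G05163 and 6274 for AT4G04565. AT1G15410, the gene opposite AT1G05163, had means of 34.0 and 26.1 CPM in Col-0 and mos11 nuclei and was not called (adjusted p = 0.086).

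**Figure D1:**
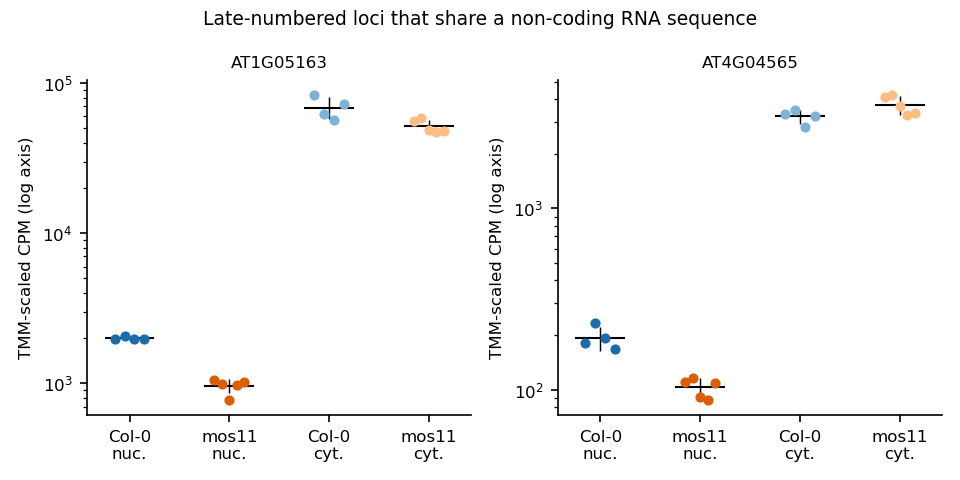
Levels of AT1G05163 and AT4G04565 in every library, as TMM-scaled CPM on a log axis, by genotype and fraction (4 Col-0 and 5 mos11 libraries per fraction). Points are libraries, horizontal lines means and vertical lines SD. In both loci the cytoplasmic libraries lie far above the nuclear ones, and the mos11 nuclei below the Col-0 nuclei.

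Between fractions, most late-numbered loci with a call were higher in nuclei. In Col-0, 100 of 183 loci that passed the filter on low counts were called higher in the nucleus and 38 lower, where 40.6% and 32.8% of all genes tested were. In mos11 the counts were 97 and 42, beside 40.8% and 35.3% of all genes. Since the loci were chosen by a sum that mostly counts nuclear reads, these counts are a description only. The split by class was uneven: of 62 long non-coding loci tested, 49 were called higher in Col-0 nuclei and 6 lower (median log2 fold change 3.28). Of 121 protein-coding loci 51 were higher and 32 lower (median 0.70), beside a median of 0.30 over all genes tested. Long non-coding loci with the same count minimum outside the number range had 97 higher and 2 lower of 108 (median 3.43). The call was shared by both genotypes for 89 loci higher in the nucleus and 33 lower. The matching share over all genes is not given here, so these counts too are a description only.

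Several long non-coding loci had reads in nuclei and none in the cytoplasm of at least 1 genotype. Their summed counts came almost wholly from nuclei, and they met the count minimum through them. The fold bounds below are thus a description, with no test. AT1G09023 (chr1:25921325-25926267) stood at 36.8, 50.5, 38.0 and 44.8 CPM in Col-0 nuclei and at 0 in all Col-0 cytoplasmic libraries. It was thus at least 32.9-fold higher in the nucleus when the empty group is set to a floor of 3 counts over its libraries together. In mos11 it stood at 32.1, 34.1, 33.3, 36.2 and 24.7 CPM in nuclei and was seen in 2 of 5 cytoplasmic libraries, at 2.31 and 1.53 CPM. AT5G09175, AT3G05932, AT2G08455 and AT1G07743 had no cytoplasmic read in either genotype and were at least 10.2, 7.75, 7.62 and 5.96-fold higher in Col-0 nuclei. In mos11 nuclei they were at least 12.9, 18.4, 14.5 and 8.41-fold higher. AT1G09863 was at least 9.92-fold higher in Col-0 nuclei. AT1G07893, on the other strand of AT1G53500, had no cytoplasmic read in either genotype. It was at least 5.87-fold higher in Col-0 nuclei and 4.07-fold in mos11 nuclei. AT3G08595, AT5G09395 and AT3G09745 were likewise without a cytoplasmic read in either genotype, and at least 4.64, 4.51 and 4.89-fold higher in Col-0 nuclei. In mos11 nuclei they ranged from 7.15 to 9.21, 5.56 to 7.72 and 2.97 to 7.97 CPM. Among the protein-coding loci, AT3G06435 had no read in Col-0 cytoplasm and was at least 30.6-fold higher in Col-0 nuclei, a value that its near-identical copy leaves uncertain. AT3G06325, which has a near-identical copy and is as uncertain, was among the most abundant nuclear loci. It stood at 463 to 807 CPM in Col-0 nuclei and 1.79 to 16.0 CPM in Col-0 cytoplasm.

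Besides the AT1G05163 pair, the loci higher in the cytoplasm included protein genes of small size and the microRNA mimics described below. AT3G05727, annotated as an SLR1-binding pollen coat protein family member, stood at 211, 129.6, 182 and 127 CPM in Col-0 cytoplasm and 6.45, 4.10, 9.03 and 6.37 CPM in Col-0 nuclei (log2 fold change, nucleus against cytoplasm, -4.70 ± 0.23 (SE), adjusted p = 1.7e-16). The groups lie far apart in both genotypes, with -3.75 in mos11. On the same log2 scale, AT1G05205 had -4.30 in Col-0 and -4.11 in mos11. The long non-coding AT2G08665 had -4.30 and -3.91, and AT2G03975, opposite AT2G01410, -4.19 and -3.39. The uncharacterized protein gene AT1G07985, which reached the count minimum only through Col-0 cytoplasm, had -3.57 in Col-0 and -2.54 in mos11. AT2G07687 (-3.00 in mos11) and AT2G05215 match the mitochondrial genome, so their counts are uncertain. AT2G05215 was among the most abundant cytoplasmic loci, at 159.8 to 241 CPM in Col-0 and 149 to 236 CPM in mos11.

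**Figure D2:**
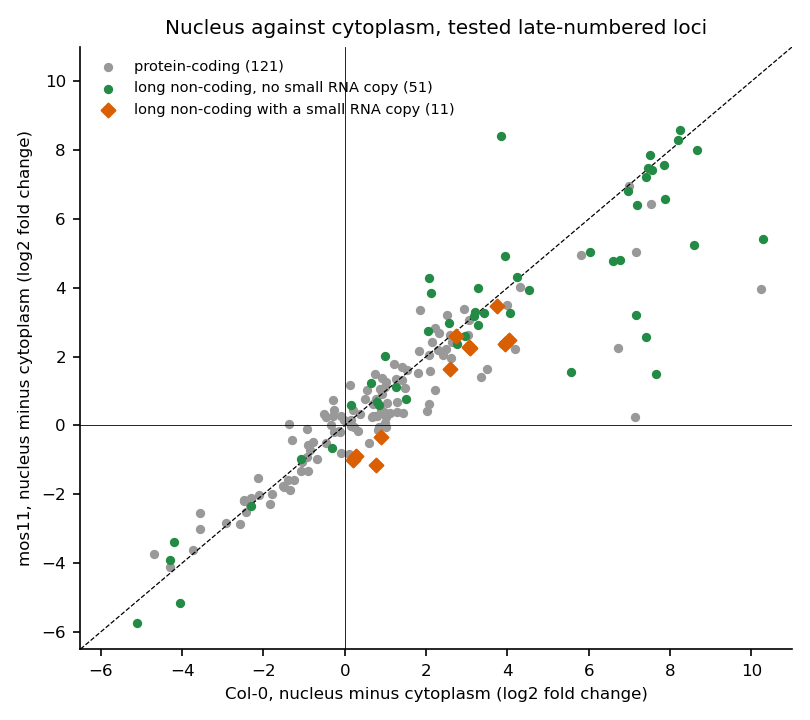
Nucleus against cytoplasm log2 fold change of each late-numbered locus tested, in Col-0 (horizontal axis) and mos11 (vertical axis). Grey points are protein-coding, green points long non-coding, and orange diamonds long non-coding loci with a small RNA copy, and the dashed line marks equal values. Long non-coding points reach the upper right, where values against a group without reads depend on the fit's prior count and are no bounds. All 11 diamonds, loci grouped after their values had been seen, lie below the dashed line.

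Comparing genotypes within a fraction asks which RNAs change in the mos11 mutant. In nuclei, 30 late-numbered loci were called lower in mos11 and 10 higher, of 183 tested, where 10.9% and 9.14% of all genes were. The long non-coding loci had 18 lower and 3 higher of 62, and the protein-coding loci 12 lower and 7 higher of 121. The medians over each class, -0.18 and -0.13, were near that of all genes (-0.07). Without replicate 2 of mos11 nuclei, the library that weighs most in the choice of loci, 21 loci were lower and 6 higher. Without replicate 3 or replicate 4 of mos11 nuclei the number higher was 6 as well. Of the loci called higher, 5 reached the count minimum only through mos11 nuclei, the group in which they are high, and of those called lower 5 did so only through Col-0 nuclei. Such loci could pass only by being high there, so those named are given below as a description, with no test. In whole rosettes, fewer cells of a type and less RNA per cell cannot be told apart in any of these differences.

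Many of the long non-coding loci lower in mos11 nuclei carry the sequence of a small structural RNA. A search of the loci against the annotated small nuclear, small nucleolar and ribosomal RNAs was made after the values had been seen. It found 11 such loci by matches on the strand of the locus itself (at least 90% identity over at least 50 bases). AT3G05675 and AT1G07705 matched only on the other strand (U1.7, 100% over 162 bases, and a small nucleolar RNA, 100% over 81 bases). They were not counted as carriers, and neither was called between genotypes. By the annotation, the loci counted include no small nuclear, small nucleolar or ribosomal RNA gene. The genes of these small RNAs have no counts of their own and are not analysed here. AT5G04325 contains the whole U1.9 small nuclear RNA gene (100% over 164 bases). AT5G07745 holds a relative of U1.2 (96.3% over 164 bases), and AT5G07325 holds relatives of U1.2 (91.8% over 159 bases) and U4.6 (96.8% over 125 bases). AT5G09065 holds a relative of part of U2.6 (94.7% over 206 bases), and the same stretch matches the whole of U2.10 (93.8% over 195 bases). U1, U2 and U4 are RNA cores of the spliceosome, and the U1 copy in AT5G04325 is shown because that locus fell most in mos11 nuclei. Its capitals, ACTTACCT, mark the letters by which U1 pairs with the start of an intron.
AT5G04325, U1.9 copy, chr5:9494431-9494594, minus strand: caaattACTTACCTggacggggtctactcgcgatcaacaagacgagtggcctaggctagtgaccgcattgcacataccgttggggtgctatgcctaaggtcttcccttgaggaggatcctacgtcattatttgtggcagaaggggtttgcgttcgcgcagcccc
The 100 bases before the matched stretch are shown for these loci because 4 of the 5 small nuclear RNA matches, all but U4.6, have CCCACATCG there (in capitals). These letters start 70, 83, 83 and 69 bases before the match in the order printed.
AT5G04325, before its U1.9 match, chr5:9494595-9494694, minus strand: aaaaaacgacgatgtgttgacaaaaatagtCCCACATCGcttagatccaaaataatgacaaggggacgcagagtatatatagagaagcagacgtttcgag
AT5G07745, before its U1.2 match, chr5:20996669-20996768, plus strand: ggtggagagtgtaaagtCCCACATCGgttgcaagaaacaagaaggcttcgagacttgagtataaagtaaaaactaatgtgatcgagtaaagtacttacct
AT5G07325, before its U1.2 match, chr5:19886087-19886186, minus strand: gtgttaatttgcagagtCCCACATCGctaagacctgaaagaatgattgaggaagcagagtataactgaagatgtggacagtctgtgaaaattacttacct
AT5G09065, before its U2.6 match, chr5:25066457-25066556, plus strand: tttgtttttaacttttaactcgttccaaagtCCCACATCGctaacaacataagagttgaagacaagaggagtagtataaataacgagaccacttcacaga
Both windows before a U1.2 relative end in the letters ACTTACCT, so the U1-like stretch there begins before the first matched base. None of the 193 late-numbered loci has CCCACATCG in the 100 bases before its own annotated start, and 1.05% of 287 annotated small nucleolar RNA genes have.

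AT5G04325 stood at 188, 209, 244 and 175 CPM in Col-0 nuclei and at 49.8, 63.7, 26.4, 32.7 and 65.3 CPM in mos11 nuclei. All mos11 nuclei were below all Col-0 nuclei, replicates 3 and 4 the lowest, and the log2 fold change was -2.08 ± 0.22 (SE), adjusted p = 1.4e-07. Its cytoplasmic levels, 193, 127, 98.9 and 60.9 CPM in Col-0 and 108, 125, 78.1, 118 and 103 CPM in mos11, overlapped and were not called (-0.16 ± 0.27, adjusted p = 0.75). The ratio of nucleus to cytoplasm thus differed between genotypes, from 0.77 in Col-0 to -1.15 in mos11 on the log2 scale (interaction -1.92 ± 0.34 (SE), adjusted p = 0.0036). AT5G07745 measured 374, 401, 476 and 459.6 CPM in Col-0 nuclei against 109, 158, 68.0, 73.4 and 179 CPM in mos11 nuclei (-1.86 ± 0.24 (SE), adjusted p = 3.4e-06). Here too the groups did not overlap and replicates 3 and 4 of mos11 were the lowest. AT5G07325 measured 321, 332, 375 and 353 CPM against 126, 146, 64.4, 70.1 and 165 CPM (-1.59 ± 0.26 (SE), adjusted p = 7.0e-05). AT5G09065 measured 26.9, 27.7, 30.1 and 19.3 CPM against 14.3, 12.6, 5.42, 5.05 and 11.2 CPM (-1.33 ± 0.22 (SE), adjusted p = 7.3e-05). In the cytoplasm none of these 4 loci was called, with log2 fold changes of -0.16, -0.65, -0.35 and -0.18.

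The other carriers hold small nucleolar RNAs, which guide the chemical modification of ribosomal RNA, or the 5.8S ribosomal RNA. AT5G09125, with AtsnoR96, stood at 129, 110.4, 138 and 83.6 CPM in Col-0 nuclei and 60.6, 56.5, 33.0, 27.0 and 36.5 CPM in mos11 nuclei (-1.39 ± 0.18 (SE), adjusted p = 3.7e-06). AT4G03905, with AtU19-2 and part of snoR138, had a mean of 30.3 ± 7.39 CPM (SD) in Col-0 nuclei and 9.97 ± 2.19 in mos11 nuclei (-1.53 ± 0.18 (SE), adjusted p = 1.2e-06). AT3G03435, with snoR161, went from 15.3 ± 4.98 to 5.38 ± 1.08 CPM (-1.44 ± 0.22 (SE), adjusted p = 2.9e-05). AT1G05913, with AtsnoR59a and part of AtsnoR59b, went from 16.3 ± 4.90 to 6.39 ± 2.83 CPM (-1.21 ± 0.26 (SE), adjusted p = 0.0011). These loci were lower in every mos11 nucleus than in any Col-0 nucleus. AT3G04975, with snoR137, was lower by less (-0.65 ± 0.23 (SE), adjusted p = 0.042), a call that was lost without replicate 1, 3 or 4 of Col-0 nuclei, replicate 4 of mos11 cytoplasm or replicate 1, 2, 3, 4 or 5 of mos11 nuclei (adjusted p from 0.0519 to 0.15). AT3G04775, with Z4, Z43 and a further small nucleolar RNA, was the exception. It stood at 86.5, 40.6, 80.8 and 78.0 CPM in Col-0 nuclei and 87.2, 52.9, 27.9, 22.9 and 33.1 CPM in mos11 nuclei. The groups overlapped and it was not called (-0.64 ± 0.25 (SE), adjusted p = 0.076). AT3G06355 holds the whole 5.8S ribosomal RNA gene, and its near-identical copies make its counts uncertain. It stood at 339, 254, 344 and 269 CPM in Col-0 nuclei and 114, 123, 123, 78.4 and 85.2 CPM in mos11 nuclei. In the cytoplasm it stood at 47.9, 66.2, 33.9 and 41.2 CPM in Col-0 and 16.1, 21.8, 9.19, 21.1 and 16.8 CPM in mos11, again without overlap. It was the only carrier called in both fractions, with -1.52 ± 0.14 (SE), adjusted p = 3.3e-08 in nuclei and -1.38 ± 0.27 (SE), adjusted p = 0.0011 in cytoplasm.

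Over the 11 carriers, 10 were called lower in mos11 nuclei, with a median log2 fold change of -1.44 and a range from -2.08 to -0.64, all below 0. In the cytoplasm 1 was called lower, with a median of -0.28. The 51 tested long non-coding loci without such a copy had 8 lower and 3 higher in mos11 nuclei, and a median of -0.09. Outside the number range, 6 long non-coding loci with a small RNA copy (AT1G15002, AT1G20691, AT4G07070, AT5G01775, AT5G02645 and AT5G15022) had 2 called lower in mos11 nuclei and 5 of 6 below 0, with a median of -0.47. The carriers were grouped after their values were known, so these counts are a description and carry no test of the group. Which RNA molecules gave the reads, the small RNA or a longer transcript around it, was not tested. AT3G03595, which ends 8 bases from AtsnoR89 and was not counted as a carrier, was also called lower in mos11 nuclei (-1.14 ± 0.26 (SE), adjusted p = 0.0023), although its groups overlapped.

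**Figure D3:**
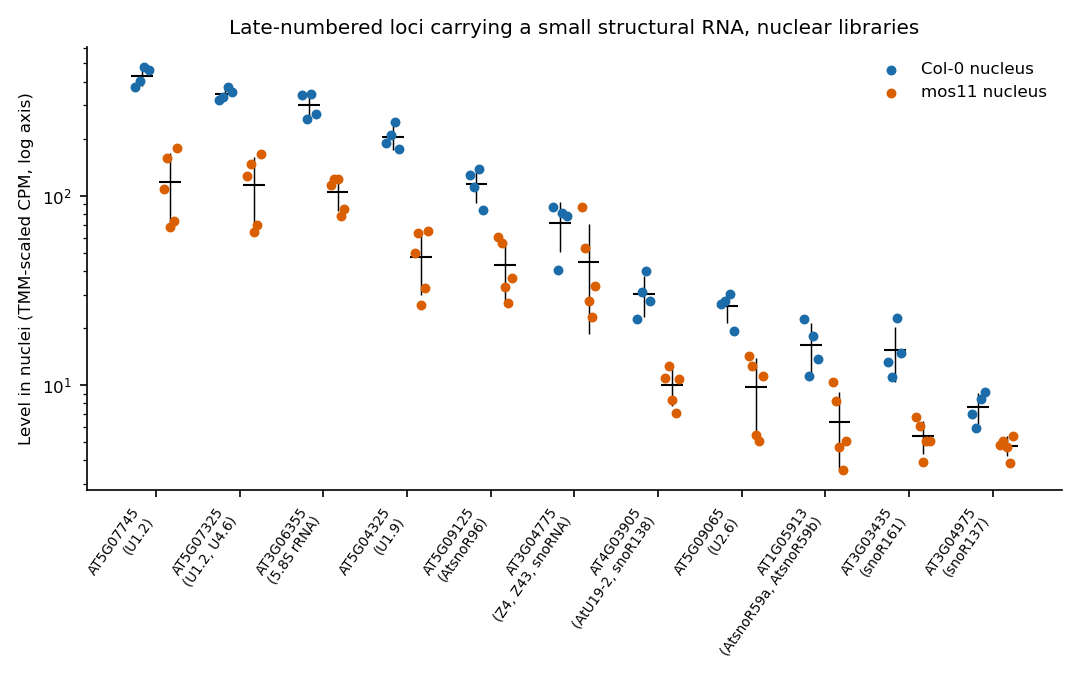
Nuclear levels (TMM-scaled CPM, log axis) of the 11 late-numbered loci that carry a small structural RNA, named in brackets, in 4 Col-0 (blue) and 5 mos11 (orange) libraries. Points are libraries, horizontal lines means and vertical lines SD. The mos11 points lie below the Col-0 points for every locus but AT3G04775, where they overlap.

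Among the protein-coding loci, the most abundant one that fell in mos11 nuclei was AT4G05631, an uncharacterized protein gene (chr4:2990006-2992618). It stood at 1228, 1120.0, 1199.8 and 1113 CPM in Col-0 nuclei and 427, 373, 369, 394 and 372 CPM in mos11 nuclei, with no overlap (-1.59 ± 0.12 (SE), adjusted p = 6.6e-10). It was a nuclear transcript in both genotypes, at 10.8 to 27.2 CPM in Col-0 cytoplasm and 6.72 to 18.9 CPM in mos11 cytoplasm, where it was not called (adjusted p = 0.084). AT2G04865, a plant mobile domain family gene, stood at 48.1, 45.4, 55.3 and 48.0 CPM in Col-0 nuclei and 24.2, 24.2, 24.4, 24.4 and 25.4 CPM in mos11 nuclei (-1.01 ± 0.12 (SE), adjusted p = 1.3e-06). In the cytoplasm its groups overlapped, at 28.5 to 41.6 and 26.0 to 44.4 CPM. Its ratio of nucleus to cytoplasm went from 0.59 in Col-0 to -0.50 in mos11 (interaction -1.09 ± 0.23 (SE), adjusted p = 0.015). Other protein genes lower in mos11 nuclei were hemf2 (-0.84), a coproporphyrinogen III oxidase gene of heme and chlorophyll synthesis, AT5G03355, a C1 domain protein gene (-0.84), and AT1G03457, an RNA-binding protein gene (-0.66). So were PP2C52, a protein phosphatase gene (-0.54), ALN, the allantoinase of purine breakdown (-0.40), and AT1G05805, a basic helix-loop-helix factor gene (-0.38). The ALN call was lost without replicate 1 or 2 of Col-0 nuclei, replicate 4 of mos11 cytoplasm or replicate 1, 2, 3, 4 or 5 of mos11 nuclei (adjusted p from 0.051 to 0.18). The AT1G05805 call was lost without replicate 3 of Col-0 nuclei, replicate 4 of mos11 cytoplasm or replicate 2 or 3 of mos11 nuclei (adjusted p from 0.0663 to 0.0985), and the AT1G03457 call was lost without replicate 2 or 3 of mos11 nuclei (adjusted p from 0.0585 to 0.0675).

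The long non-coding locus AT1G09437 (chr1:27954364-27954690, minus strand) lies opposite AT1G74360, a leucine-rich repeat protein kinase gene. Its summed count of 449 comes almost wholly from mos11 nuclei (441 counts), and the other groups together gave 8. It stood at 0, 0.372, 0.821 and 0.597 CPM in Col-0 nuclei and 12.1, 9.57, 10.1, 15.4 and 11.8 CPM in mos11 nuclei, and had no read in any cytoplasmic library. All mos11 nuclei were thus above all Col-0 nuclei, and in mos11 it was at least 14.5-fold higher in the nucleus than in the cytoplasm. AT1G74360 on the other strand had nuclear means of 15.1 ± 3.35 CPM (SD) in Col-0 and 12.8 ± 2.53 in mos11 and was not called (-0.24, adjusted p = 0.38). AT4G08555, an uncharacterized protein gene, met the minimum only through mos11 libraries as well. It stood at 0.538, 0.559, 1.37 and 1.19 CPM in Col-0 nuclei and 3.38, 4.11, 1.73, 2.67 and 2.71 CPM in mos11 nuclei. In cytoplasm it stood at 1.60, 8.64, 4.07 and 3.58 CPM in Col-0 and 11.5, 16.9, 9.19, 17.8 and 10.1 CPM in mos11. Its groups did not overlap in either fraction. It failed the filter on low counts when any 1 of the mos11 nuclear libraries was left out (5 of 18 fits). Without mos11 cytoplasm it would also miss the minimum (176 counts), so its cytoplasmic values are a description too. Its cytoplasmic call was lost without replicate 1, 3 or 4 of Col-0 cytoplasm. AT3G05165, a major facilitator superfamily transporter gene, stood at 209, 209.9, 108 and 139 CPM in Col-0 nuclei and 302, 322, 306, 309 and 297 CPM in mos11 nuclei (0.88 ± 0.16 (SE), adjusted p = 0.00018). It rose in the cytoplasm as well, from 38.4, 25.9, 24.4 and 28.7 to 71.5, 73.8, 53.6, 85.5 and 43.7 CPM (1.16 ± 0.26 (SE), adjusted p = 0.0035). The protein gene AT2G04039 was called higher in nuclei (0.83 ± 0.21 (SE), adjusted p = 0.0049). So was AT3G05727, the pollen coat protein family member described above (adjusted p = 0.0063), a call kept in all 18 fits that left out 1 library. The other loci that met the minimum only through mos11 nuclei were the long non-coding AT1G09257, opposite AT1G71490, AT3G04615, opposite AT3G24020, and the protein gene AT3G09405. Their nuclear log2 fold changes were 1.21, 1.06 and 0.90. AT1G09257 failed the filter without replicate 2, 3, 4 or 5 of mos11 nuclei. AT1G71490 was not tested for low counts, and AT3G24020 was not called (-0.39, adjusted p = 0.48). EMB2761, a threonyl-tRNA synthetase gene, was called by a narrow margin (0.35 ± 0.12 (SE), adjusted p = 0.049), and the call was lost without replicate 4 of Col-0 cytoplasm, replicate 1, 3 or 4 of Col-0 nuclei, replicate 1, 3 or 5 of mos11 cytoplasm or replicate 1, 2, 3, 4 or 5 of mos11 nuclei (adjusted p from 0.0529 to 0.146).

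**Figure D4:**
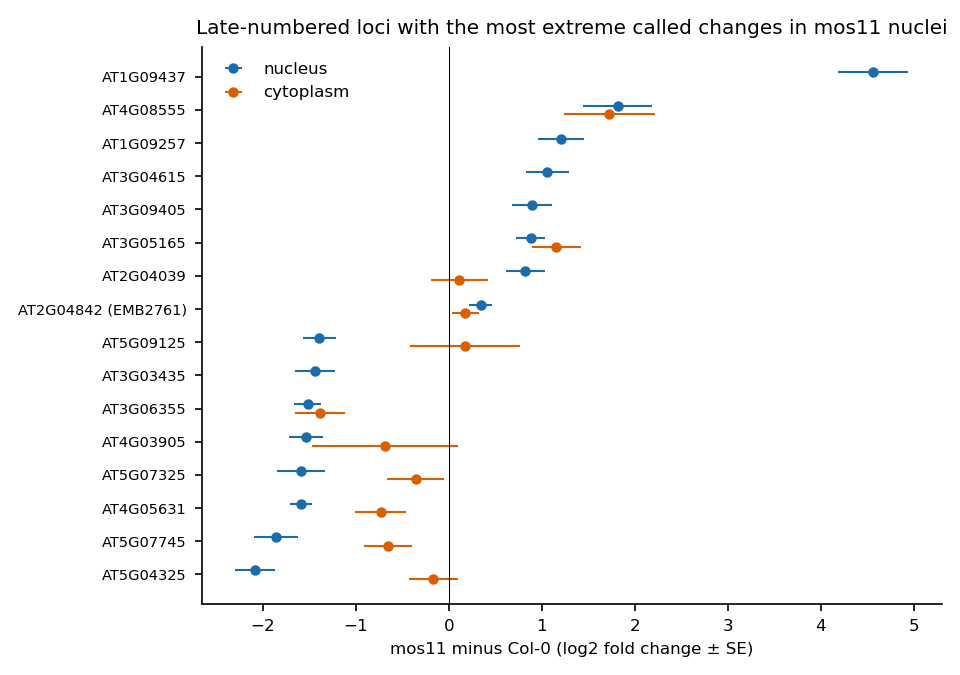
Log2 fold change of mos11 against Col-0, with SE, in nuclei (blue) and cytoplasm (orange), for the late-numbered loci with the most extreme called changes in nuclei. Cytoplasmic points are left out where a cytoplasmic group had 3 counts or fewer in all. AT1G09437, AT4G08555, AT1G09257, AT3G04615 and AT3G09405 met the count minimum only through mos11 nuclei. The loci at the bottom, most of them carriers of small RNAs, lie far below 0 in nuclei, with cytoplasmic points nearer to 0, although that of AT3G06355 is close to its nuclear one.

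In the cytoplasm the genotypes differed at fewer of these loci, with 5 called higher and 9 lower in mos11 of 183, where 6.02% and 6.4% of all genes were. The number called lower was 4 without replicate 1 of Col-0 cytoplasm, and the number higher was 1 without its replicate 4 and 3 without its replicate 3. LIN2, the other coproporphyrinogen III oxidase gene, stood at 304, 268, 257 and 346 CPM in Col-0 cytoplasm and 211, 231, 202, 193 and 232 CPM in mos11 cytoplasm, with no overlap (-0.46 ± 0.12 (SE), adjusted p = 0.0093). This call was lost without replicate 4 of Col-0 cytoplasm or replicate 4 of mos11 cytoplasm (adjusted p from 0.0525 to 0.0603). AT2G04378, a beta-galactosidase related gene, stood at 60.7, 51.8, 61.0 and 52.0 CPM against 34.6, 37.5, 13.8, 22.2 and 42.6 CPM (-0.89 ± 0.22 (SE), adjusted p = 0.0074), while its nuclear groups overlapped at 37.9 to 56.7 and 49.0 to 53.5 CPM. PCFS4, a homologue of the polymerase II termination factor Pcf11, stood at 4.79, 8.64, 14.9 and 8.96 CPM against 20.8, 19.4, 18.4, 15.5 and 24.6 CPM (1.03 ± 0.32 (SE), adjusted p = 0.033). PP2C52 stood at 70.3, 54.7, 63.7 and 57.3 against 41.5, 49.6, 53.6, 43.3 and 33.6 CPM (-0.50 ± 0.16 (SE), adjusted p = 0.042). The groups did not overlap for either gene. The PCFS4 call was lost without replicate 1, 2 or 4 of Col-0 cytoplasm or replicate 1 or 5 of mos11 cytoplasm (adjusted p from 0.053 to 0.137), and the PP2C52 call was lost without replicate 1, 3 or 4 of Col-0 cytoplasm or replicate 1, 4 or 5 of mos11 cytoplasm (adjusted p from 0.0577 to 0.135). PDK, the pyruvate dehydrogenase kinase gene, was called lower with overlapping groups (-0.85 ± 0.26 (SE), adjusted p = 0.033), as were AT1G07985 (-1.26), AT1G06515 (-1.21) and the long non-coding AT2G03975 (-1.04). AT1G07985 reached the count minimum only through Col-0 cytoplasm, so its value is a description. The PDK call was lost without replicate 1 or 3 of Col-0 cytoplasm or replicate 1, 4 or 5 of mos11 cytoplasm (adjusted p from 0.0537 to 0.319). That for AT2G03975 was lost without replicate 1 or 2 of Col-0 cytoplasm or replicate 1, 4 or 5 of mos11 cytoplasm (adjusted p from 0.0852 to 0.28). That for AT1G07985 was lost without replicate 1 of Col-0 cytoplasm, and that for AT1G06515 was lost without replicate 4 of Col-0 cytoplasm (adjusted p = 0.0702). AT3G08505, a zinc finger protein gene, was called higher in both fractions (0.59 in nuclei and 1.50 in cytoplasm), also with overlap. The nuclear call was lost without replicate 1, 3 or 4 of Col-0 nuclei or replicate 2, 3 or 4 of mos11 nuclei (adjusted p from 0.0532 to 0.174). The cytoplasmic call was lost without replicate 2, 3 or 4 of Col-0 cytoplasm or replicate 1, 3, 4 or 5 of mos11 cytoplasm (adjusted p from 0.0537 to 0.138). AT3G06325, whose near-identical copy makes its counts uncertain, was the remaining locus called higher (1.34, overlapping groups). Its call was lost without replicate 3 or 4 of Col-0 cytoplasm or replicate 1 of mos11 cytoplasm (adjusted p from 0.08 to 0.146). The 3 loci called lower in both fractions were AT1G05163, AT3G06355 and PP2C52.

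The nucleus to cytoplasm ratio differed between genotypes for 4 late-numbered loci called lower in mos11 and 1 called higher, where 0.919% and 0.66% of all genes were. The lower ones were AT5G04325, AT4G04565, AT2G04865 and AT1G05163, with the values given above. The higher one was AT2G04378 (1.01 ± 0.26 (SE), adjusted p = 0.048), a call that was lost without any 1 of 16 libraries, all but replicate 3 of Col-0 nuclei and replicate 5 of mos11 cytoplasm (adjusted p from 0.0528 to 0.0978). Of the others, that of AT1G05163 was lost without replicate 2 or 4 of mos11 cytoplasm (adjusted p from 0.0506 to 0.065), and that of AT2G04865 was lost without replicate 4 of mos11 cytoplasm (adjusted p = 0.0525). Without replicate 4 of mos11 cytoplasm 2 loci were called lower. All 11 carriers of a small RNA had an interaction value below 0 (median -1.16, against -0.09 over all genes), although AT5G04325 alone was called. The carriers were grouped with their nuclear values in view, and the interaction contains those values. Their shared sign is thus a description and no further result.

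Gene symbols were given for 30 of the loci, all protein-coding, and they cover unrelated functions. The coproporphyrinogen III oxidase genes lie on opposite sides. Log2 values here are nucleus against cytoplasm unless named otherwise. LIN2, whose nuclear levels in Col-0 were 50.3, 63.3, 45.4 and 51.3 CPM, was higher in the cytoplasm (-2.48 ± 0.13 (SE), adjusted p = 4.1e-16). Its relative hemf2 stood at 64.2, 62.8, 95.5 and 60.9 CPM in Col-0 nuclei and 0, 2.88, 2.71 and 8.96 CPM in Col-0 cytoplasm (4.31 ± 0.39 (SE), adjusted p = 1.2e-10). In mos11 nuclei hemf2 measured 36.2, 39.9, 39.2, 41.0 and 40.9 CPM, below every Col-0 nucleus (mos11 against Col-0, -0.84 ± 0.16 (SE), adjusted p = 0.00033). Other genes higher in Col-0 nuclei were ALN (2.60), RAD51D of DNA repair (2.50), PCFS4 (2.23), ABCI19 (2.08), and FIP1, a FRIGIDA-interacting protein gene of flowering control (1.80). So were ATG10 of autophagy (1.26), NIMIN-3 (1.02), and DPB, a partner of E2F factors (0.91). Genes higher in Col-0 cytoplasm were POLD4, a DNA polymerase delta subunit (-2.93), CDC25, a phosphatase gene (-2.31), YAB2, a YABBY factor of leaf polarity (-2.14), and SAH7 (-1.85). Further ones were ATP-PRT2 of histidine synthesis (-1.51), PRA1.A2 (-0.92), EMB2761 (-0.87) and NCS1, a nucleobase transporter (-0.47). The remaining genes with a symbol were not called between fractions in Col-0. D27, of strigolactone synthesis, had -0.93 and was called in mos11 (-0.91). The others were PP2C52, GTF2H2, LPA19, PDK, CPK31, YY1, ABO6, TGA10 and ATSTE14B, between -0.52 for GTF2H2 and 1.03 for ABO6. PLA2-ALPHA was not tested. Of all 30, hemf2, PP2C52, ALN and EMB2761 were called between genotypes in nuclei, and LIN2, PDK, PCFS4 and PP2C52 in the cytoplasm.

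**Figure D5:**
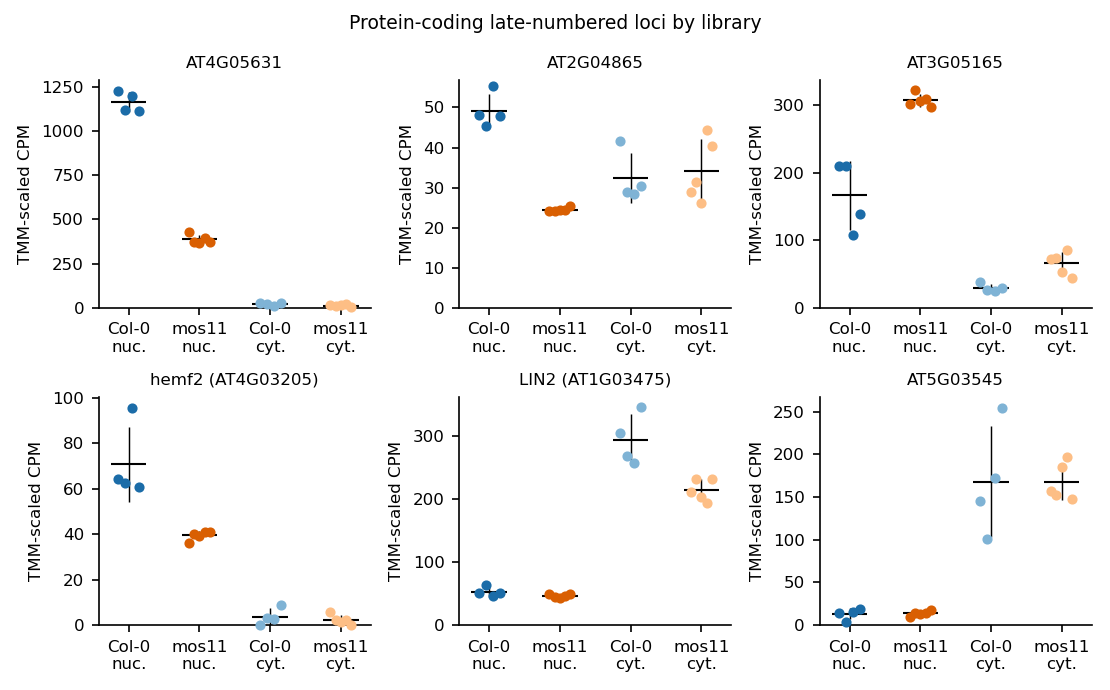
Levels (TMM-scaled CPM, linear axes that start at 0) of AT4G05631, AT2G04865, AT3G05165, hemf2, LIN2 and AT5G03545 in every library by genotype and fraction (4 Col-0 and 5 mos11 libraries each). Points are libraries, horizontal lines means and vertical lines SD. AT4G05631 and hemf2 are high in nuclei and lower in mos11, AT3G05165 is higher in mos11 in both fractions, and LIN2 and AT5G03545 are high in the cytoplasm.

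IPS1 (AT3G09922) and AT5G03545 are RNAs of the phosphate starvation response, given as protein-coding in the annotation. IPS1 is known as a target mimic: it pairs with the microRNA miR399, which represses PHO2, but extra bases in the middle of its site keep it from being cut. The sites are shown with the microRNA because they are the sequence that the loci share. Capitals mark the seed (bases 2 to 8 of miR399b) and, in the sites, the bases that pair with it.
miR399b, chr1:23345387-23345407, minus strand: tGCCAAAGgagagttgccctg
IPS1 site, chr3:3051224-3051247, plus strand: ttgggcaacttctatcCTTTGGCa
AT5G03545 site, chr5:895149-895172, plus strand: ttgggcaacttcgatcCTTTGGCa
Each site is 24 bases long and has 3 extra bases between the stretches that pair. IPS1 stood at 4.03, 2.98, 3.83 and 5.37 CPM in Col-0 nuclei and 4.35, 4.77, 6.16, 2.67 and 4.40 CPM in mos11 nuclei. In the cytoplasm it stood at 27.2, 8.64, 13.6 and 39.4 CPM in Col-0 and 20.8, 24.2, 23.0, 18.9 and 16.8 CPM in mos11. Its cytoplasmic libraries were all above the nuclear ones (nucleus against cytoplasm -2.49 ± 0.35 (SE), adjusted p = 4.1e-07 in Col-0 and -2.16 in mos11), and the genotypes overlapped in both fractions. AT5G03545 stood at 13.7, 4.10, 15.3 and 19.1 CPM in Col-0 nuclei and 9.66, 13.8, 13.3, 14.6 and 17.2 CPM in mos11 nuclei. Its cytoplasmic levels were 145, 101, 172 and 254 CPM in Col-0 and 157, 152, 185, 197 and 148 CPM in mos11 (-3.73 ± 0.28 (SE), adjusted p = 2.3e-12 between fractions in Col-0). Between genotypes neither was called. IPS1 had log2 fold changes of 0.18 ± 0.27 (SE), adjusted p = 0.71 in nuclei and -0.15 ± 0.32 (SE), adjusted p = 0.81 in cytoplasm. AT5G03545 had 0.08 ± 0.27 (SE), adjusted p = 0.88 and -0.03 ± 0.24 (SE), adjusted p = 0.96.

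Other genes of phosphate supply were called between genotypes. The 2 gene lists below were chosen with earlier results of these data known. Their counts and medians are thus a description and carry no test of a list. Of a list of 20 genes of phosphate starvation and transport, 19 were tested, and 13 were called higher in mos11 nuclei (median log2 fold change 0.74, against -0.07 over all genes), where 9.14% of all genes were. In the cytoplasm 12 were higher and 1, the ubiquitin ligase gene NLA, was lower, where 6.02% and 6.4% of all genes were. The cytoplasmic median was 1.04, against 0.04 over all genes. The summed level of the list was 925 to 1391 CPM in Col-0 nuclei and 2134 to 2441 CPM in mos11 nuclei, without overlap. The 4 with the smallest p in nuclei were G3PP1 (1.26 ± 0.13, SE), the acid phosphatase gene PAP17 (1.19 ± 0.14), the phosphate transporter gene PHT1;4 (1.06 ± 0.13) and the sulfolipid synthase gene SQD2 (1.28 ± 0.18). PHO2, the gene that miR399 represses, rose in both fractions, by 0.58 ± 0.11 in nuclei and 1.04 ± 0.13 in cytoplasm. A list of 16 genes of nuclear and cytoplasmic RNA turnover had 3 called higher in mos11 cytoplasm (all genes 6.02%) and 0 called in mos11 nuclei (edgeR; DESeq2 also called 0, and 0 had an unadjusted p under 0.05). Between fractions, 10 of them were higher in Col-0 nuclei and 3 lower, where 40.6% and 32.8% of all genes were. Their median log2 fold change there was 0.51, against 0.30 over all genes.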

How the data were processed

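The authors deposited raw counts, whole numbers without normalisation, for 30901 loci in 18 libraries. The submitters' processing notes name UMI-tools, STAR 2.7.8a, featureCounts, Picard and the build TAIR10, without their roles; per the labels' protocols the libraries were NuGEN Universal Plus with ribosomal RNA depleted. Column names gave group and replicate for all libraries, and no source used here says if columns labelled with both flow cells are sums.

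RefSeq's TAIR10.1 annotation and genome gave names, coordinates, biotypes and sequences; sequence copies were found with blastn 2.17.0. Counts were fitted in edgeR 4.0.16 (R 4.3.3): filterByExpr, TMM, all 18 libraries in 4 groups, quasi-likelihood tests, Benjamini-Hochberg adjustment over 16207 genes, threshold 0.05. TMM factors were 1.45 to 1.54 in nuclei and 0.596 to 0.729 in cytoplasm, so levels are shares of each fraction's RNA and not amounts per cell. The SE was obtained by dividing the absolute log2 fold change by the root of the F statistic. The procedure was tested on simulated data. DESeq2 1.42.0 and the other alternatives are in the closing section.

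The loci and lists were chosen with earlier results of these data known. Named loci were the 6 highest in each group, up to 8 per comparison and direction with the largest called changes, groups that do not overlap and a mean log2 CPM of at least 1, those with a symbol, overlapping partners of the loci so named, and the 3 on each side of the count minimum; the carriers of small RNAs, AT3G03595 and the further called loci given with overlap were picked with their values in view. In the Col-0 fractions same-numbered libraries deviated together (correlations 0.105 to 0.333 over genes), and 3 of 4 were closest to their own number. The labels do not say what a number marks, so the main fit has no replicate block, and the block is an alternative.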

Additional observations from a re-analysis of the deposited data

Results flagged for a closer look

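In 5 loci the nucleus to cytoplasm ratio differed between genotypes by a test of the difference itself. The interaction log2 fold changes were -1.92 for AT5G04325, -1.12 for AT4G04565, -1.09 for AT2G04865, -0.64 for AT1G05163 and 1.01 for AT2G04378. The 4 negative ones have a lower nuclear share in mos11, and AT2G04378 a higher one.

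Single libraries stood apart from the rest of their group in 7 of 134 groups of named loci examined, where chance alone flags about 1 in 20. AT1G05163 was at 2080.2 CPM in replicate 2 of Col-0 nuclei and at 776 CPM in replicate 3 of mos11 nuclei. AT2G04865 was at 41.6 CPM in replicate 1 of Col-0 cytoplasm and at 25.4 CPM in replicate 5 of mos11 nuclei, where the other 4 stood at 24.2 to 24.4 CPM. AT1G07893 was at 14.0 CPM in replicate 3 and AT3G09745 at 3.23 CPM in replicate 1 of Col-0 nuclei. AT5G09395 was at 7.72 CPM in replicate 4 of mos11 nuclei.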

How the results depend on the processing

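No count or named value reversed its direction under the alternatives run. Counts are given as higher and lower. With a summed count of at least 500, the loci between fractions fell to 61 and 21 in Col-0 and 57 and 25 in mos11, and those higher in mos11 nuclei to 5, because fewer loci enter. With protein-coding loci left out, the counts were 49 and 6 (Col-0 fractions), 49 and 10 (mos11 fractions), 3 and 18 (nuclei), 1 and 3 (cytoplasm), with 0 higher for the interaction. With loci that overlap another gene left out, they were 38 and 22, 34 and 24, 4 and 12, then 3 lower in the cytoplasm, and 0 and 1 for the interaction. With only the groups compared in the fit, 17 loci were higher in mos11 nuclei and 3 in mos11 cytoplasm; the cause was not tested. The single higher interaction became 0 without a filter, 0 with a filter of 1 CPM in 8 libraries, 2 with DESeq2 and 0 with the replicate block. Outside the Col-0 fractions the numbers gave no common pairing (correlations 0.0146 to 0.0526 in the mos11 fractions, -0.0902 to 0.102 in nuclei and -0.0197 to 0.0362 in cytoplasm, with 2 of 5, 1 of 4 and 1 of 4 libraries closest to their own number). The block left 25 loci lower in mos11 nuclei and 6 lower for the interaction and moved no other count by over 1.5 times. It kept 9 of 10 higher and 24 of 30 lower calls in nuclei, and 4 of 5 and 6 of 9 in cytoplasm. It ended the nuclear calls of AT3G04975, AT3G08505, ALN, AT4G06536, AT5G05435, AT5G06865 and AT5G09175 (adjusted p from 0.0508 to 0.116), the cytoplasmic calls of AT2G03975, PDK, AT3G08505 and PP2C52 (from 0.0513 to 0.0973), and the AT2G04378 interaction call (adjusted p = 0.0625). Median-of-ratios scaling raised the median of all genes between fractions by 0.18 in Col-0 and 0.23 in mos11 (log2). Leaving out 1 library at a time gave 84 to 107 higher and 33 to 38 lower in the Col-0 fractions, 80 to 102 and 38 to 43 in the mos11 fractions, 6 to 13 and 21 to 34 in nuclei, 1 to 5 and 4 to 10 in cytoplasm, and 0 to 2 and 2 to 6 for the interaction. Of the carriers of small RNAs, 9 to 11 were called lower in mos11 nuclei over all these fits. Low cytoplasmic depth limits loci with few reads there: 3 counts over a cytoplasmic group correspond to 1.32 CPM in Col-0 and 0.725 CPM in mos11.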
